A study of Mus musculus with 4 samples.

Results

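The hypoxia and glycolysis genes are 40 mouse genes that carry out, regulate or respond to the switch of a cell to glucose fermentation at low oxygen. They were chosen by gene symbol from knowledge of the pathway, with earlier results of these data known. All 40 were among the 18298 genes that had a read in at least 1 of the 4 samples. The samples were cultures of primary rib chondrocytes, the cells that make cartilage, isolated from C57BL/6 mouse embryos at E18.5 and used at passage 1. The 2 control samples (WT) carried the floxed alleles Senp6f/f without Cre, and the 2 mutant samples (Senp6-Mut) carried Dermo1-Cre and Senp6f/f, so all 4 samples shared the floxed alleles. Senp6 encodes a protease that takes SUMO chains off proteins, and the Twist2 (Dermo1) locus drives Dermo1-Cre in mesenchymal progenitors of cartilage and bone, so the deletion was not limited to chondrocytes. The sources used here do not say whether the samples came from separate embryos or from pools, and they give no oxygen level for the cultures, so p values measure only the spread between these samples.

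Cartilage has no blood vessels, and chondrocytes of the growth plate live at low oxygen and make most of their ATP by glycolysis. When oxygen is present, the prolyl hydroxylases encoded by Egln1, Egln2 and Egln3 mark the HIF alpha subunits, and the VHL ubiquitin ligase then directs them to degradation. At low oxygen the alpha subunits (Hif1a, Epas1) persist, pair with ARNT and bind a short core sequence in promoters and enhancers of genes for glucose uptake, glycolysis, lactate export and mitochondrial clearance. Members of the list are described below in that order, from the HIF subunits to their targets.

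The promoter sequences of the list show how common that core is. A RefSeq table of build GRCm38.p6 held 50 windows of 300 bases around the starts of 36 of the 40 members, and it had no window for Slc2a3, Ndrg1, Epas1 or Bnip3l. The core was searched as ACGTG and GCGTG on both strands, and a palindromic CACGTG, which is also an E-box, counts once on each strand. A match was found in 40 of the 50 member windows (80.0%), against 43.8% of all 32851 windows of that table. Member windows also had more G and C, with a median of 63.0% against 52.7% over all windows, and no window was matched to another by base composition. Taken by gene, 31 of 36 members (86.1%) had a match in at least 1 window, against 46.7% of 27025 genes. A gene with more windows has more chances of a match, and members had more windows per gene (50 for 36) than the table (32851 for 27025). A match describes the letters in the window and is not evidence of binding. The windows below belong to 3 members that were higher in both mutant samples (Egln3, Hk2, Ldhb), to 2 that were lower (Pdk1, Pfkfb4), and to Ldha, which had the most matches among these. Pdk1 and Ldha each had a second window, with 0 and 2 matches, and of their windows the one with more matches is printed. The last bases of the printed Ldha window were not found in a GENCODE transcript of Ldha. Capitals mark the core, and each window runs 5′ to 3′ on the strand of its gene. The window of Egln3 is chr12:54203825-54204124 on the minus strand, that of Hk2 is chr6:82774405-82774704 on the minus strand, and that of Ldhb is chr6:142507908-142508207 on the minus strand. The window of Pdk1 is chr2:71872974-71873273 on the plus strand, that of Pfkfb4 is chr9:108991652-108991951 on the plus strand, and that of Ldha is chr7:46845554-46845853 on the plus strand.
Egln3: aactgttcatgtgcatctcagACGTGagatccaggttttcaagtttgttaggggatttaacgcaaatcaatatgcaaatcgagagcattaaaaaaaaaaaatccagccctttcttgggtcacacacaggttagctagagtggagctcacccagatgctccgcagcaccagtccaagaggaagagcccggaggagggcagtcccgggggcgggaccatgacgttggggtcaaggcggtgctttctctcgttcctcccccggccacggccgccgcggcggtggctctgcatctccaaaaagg
Hk2: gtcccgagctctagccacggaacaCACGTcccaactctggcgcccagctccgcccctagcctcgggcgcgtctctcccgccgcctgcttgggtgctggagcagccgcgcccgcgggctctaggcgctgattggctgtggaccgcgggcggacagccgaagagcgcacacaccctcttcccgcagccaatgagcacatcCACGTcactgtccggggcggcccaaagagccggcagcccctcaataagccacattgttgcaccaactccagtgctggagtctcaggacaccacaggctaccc
Ldhb: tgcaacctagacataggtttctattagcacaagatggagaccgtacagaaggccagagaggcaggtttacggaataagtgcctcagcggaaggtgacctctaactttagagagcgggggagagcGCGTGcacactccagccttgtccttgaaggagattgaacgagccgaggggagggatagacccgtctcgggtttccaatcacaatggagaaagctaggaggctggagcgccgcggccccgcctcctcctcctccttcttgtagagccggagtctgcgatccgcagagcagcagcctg
Pdk1: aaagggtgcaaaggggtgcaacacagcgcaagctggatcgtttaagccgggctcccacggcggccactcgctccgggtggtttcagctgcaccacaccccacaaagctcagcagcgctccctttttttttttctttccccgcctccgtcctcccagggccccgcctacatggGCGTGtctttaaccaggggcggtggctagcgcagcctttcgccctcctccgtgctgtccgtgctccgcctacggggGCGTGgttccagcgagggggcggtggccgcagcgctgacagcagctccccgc
Pfkfb4: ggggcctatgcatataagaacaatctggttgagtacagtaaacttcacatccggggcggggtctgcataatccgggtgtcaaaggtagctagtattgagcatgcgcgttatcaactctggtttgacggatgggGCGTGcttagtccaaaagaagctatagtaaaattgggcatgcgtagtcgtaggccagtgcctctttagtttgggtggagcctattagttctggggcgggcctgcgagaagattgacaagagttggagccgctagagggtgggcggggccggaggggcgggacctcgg
Ldha: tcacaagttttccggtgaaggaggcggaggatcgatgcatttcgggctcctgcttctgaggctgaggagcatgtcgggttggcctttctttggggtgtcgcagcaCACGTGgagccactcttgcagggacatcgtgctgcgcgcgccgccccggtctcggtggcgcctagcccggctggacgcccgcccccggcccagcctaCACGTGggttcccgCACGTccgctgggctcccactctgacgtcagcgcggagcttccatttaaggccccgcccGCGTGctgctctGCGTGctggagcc
The window of Ldha held 7 matches, 4 of them from 2 CACGTG palindromes, while those of Hk2 and Pdk1 held 2 each and those of Egln3, Ldhb and Pfkfb4 held 1 each. Members that lay higher and members that lay lower in the mutant samples both had it.

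Reads counted on genes numbered between about 21000000 and 31000000 per sample, and the hypoxia and glycolysis genes took between 0.590% and 0.691% of them. Senp6 itself was read at an RPKM (reads on the gene, scaled by gene length and by all reads of the sample) of 10.8 in WT replicate 1, 18.0 in WT replicate 2, 12.0 in mutant replicate 1 and 8.07 in mutant replicate 2. WT replicate 1 was thus below mutant replicate 1, and the log2 fold change of -0.56 ± 0.28 (SE, n = 2 per group) had an adjusted p of 0.410 in edgeR. Reads were counted over the whole gene, so exons outside the deleted part still count and the total is a weak check of the genotype. Mutant replicate 2 had 11354 reads on Xist and the others at most 5, so the sexes of the embryos were mixed within the mutant group, which bears on the X-linked members Pgk1 and Pdk3. The summed RPKM of 11 chondrocyte markers, Sox9 and Col2a1 among them, was 891 and 887 in the WT samples and 416 and 556 in the mutant samples. WT replicate 1 stood apart in adipocyte markers, with a summed RPKM of 147 against 38.7 in WT replicate 2 and 21.2 and 32.0 in the mutant samples. In bulk RNA, a smaller number of cells of a type and less RNA per cell cannot be told apart.

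The comparison of Senp6-Mut with WT was fitted over the 14123 genes that reached 10 counts in 2 or more samples, and 39 members were among them. Ankrd37, a HIF target of unclear function, was left out with 2 and 1 reads in the WT samples and 7 and 5 in the mutant samples. No member was higher or lower when the Benjamini-Hochberg adjusted p of the edgeR test had to be under 0.05, and neither was any gene of the table, so the background was 0% in both directions. At an unadjusted p under 0.05 in edgeR, 4 members were higher (Egln3, Ldhb, Hk2 and Epas1) and 4 were lower (Ndrg1, Aldoc, Pdk1 and Pfkfb4). These counts are 10.3% of the members each way, close to the background of 9.29% higher and 6.28% lower over all genes tested. DESeq2 called 2 members higher (Egln3 and Ldhb) at an adjusted p under 0.05, which is 5.13% against a background of 3.07%, and 0 members lower against 1.86%. The median and the spread of the members were near those of all genes. Their median log2 fold change was 0.07 against 0.01 over all genes tested, and 25 of 39 (64.1%) lay within 0.25 of 0 against 58.2% of all genes tested.

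Counts scaled by TMM gave the same picture of the spread. Both mutant samples were above both WT samples for 10 members (25.6%) against 25.4% of all genes tested, and below both for 9 members (23.1%) against 22.8%. The 10 were Egln3, Ldhb, Hk2, Epas1, Ddit4, Pfkfb3, Slc2a1, Slc16a3, Pfkp and P4ha3. The 9 were Ndrg1, Aldoc, Pdk1, Pfkfb4, Egln2, Pfkl, Pdk3, Arnt and Vhl, of which the last 3 differed by 0.10 or less on the log2 scale. In the RPKM of Arnt and Pdk3 the groups overlapped. The 2 WT samples differed from each other more than the mutant samples did, among the members as in the whole table. The median absolute log2 difference over the members was 0.286 between the WT samples, 0.136 between the mutant samples and 0.166 between genotypes, beside 0.268, 0.147 and 0.201 over all genes tested. The first 2 compare single samples and the last compares groups of 2. For 20 of 39 members the WT samples lay farther apart than the genotypes, and for 17 the mutant samples did.

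Since the WT samples differed this much, the calls depended on which was kept. Without WT replicate 2, edgeR called 3 members higher (7.69%) and 5 lower (12.8%) at an adjusted p under 0.05, against backgrounds of 9.25% and 10.3% over all genes, so the adjusted p values of that fit given below pass a threshold that a large share of the table passes. Without WT replicate 1 it called 3 members higher (7.69%) and 0 lower, against 3.55% and 0.999%. Without mutant replicate 1 it called 1 member higher (2.56%) and 0 lower, against 1.98% and 0.634%.

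**Figure D1:**
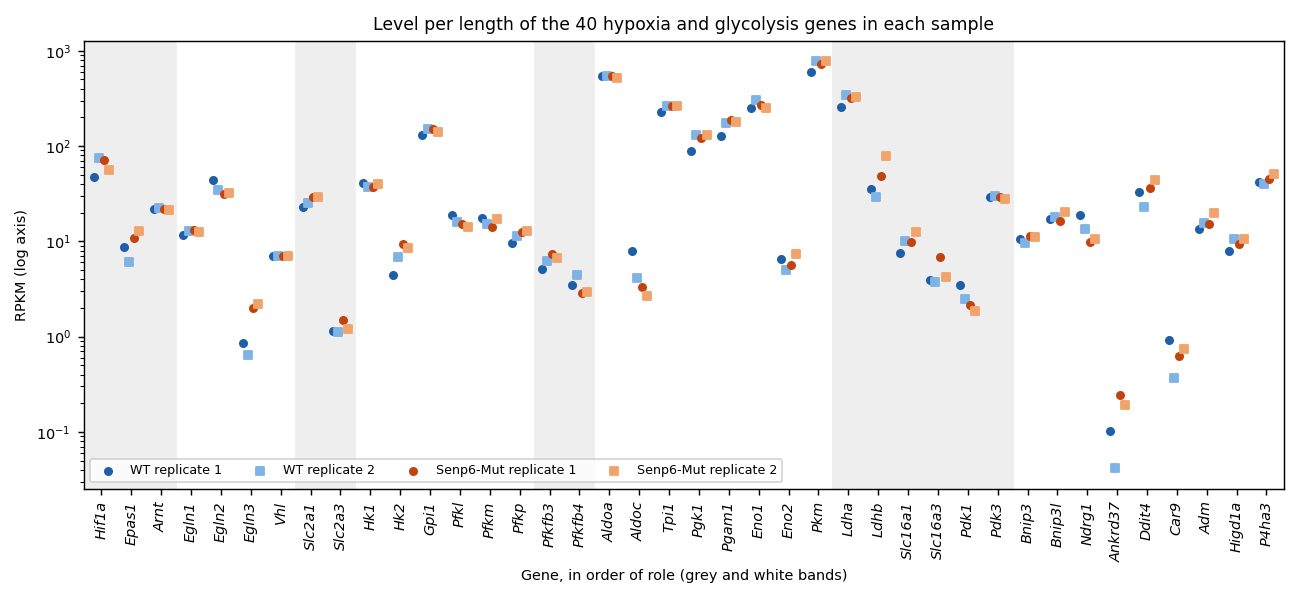
RPKM (log axis) of the 40 hypoxia and glycolysis genes in each of the 4 samples, in order of role; circles are replicate 1 and squares replicate 2, blue WT and orange Senp6-Mut. Pkm, Aldoa, Ldha, Eno1 and Tpi1 had the highest levels per length, between 230 and 779 RPKM. The points of the 4 samples lie close together for most genes, while Egln3 shows a wide gap between the colours. Ldhb and Aldoc, among others, show a narrower gap, smaller than that between the mutant points of Ldhb and between the WT points of Aldoc.

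Of the 3 HIF subunits, Hif1a had the highest level per length. Hif1a, the alpha subunit present in most cells, was at an RPKM of 47.6 and 74.4 in the WT samples and 70.8 and 55.7 in the mutant samples. The mutant values lay inside the range of the WT values, and the log2 fold change was 0.02 ± 0.23 (SE), with an adjusted edgeR p of 0.979. Epas1, which encodes the alpha subunit of HIF-2, was at an RPKM of 8.68 and 6.02 in WT and 10.7 and 13.0 in mutant samples. It was higher in both mutant samples, by 0.64 ± 0.21 on the log2 scale, with an adjusted edgeR p of 0.225. The WT replicates of Epas1 decided this value, since the log2 fold change was 0.96 without WT replicate 1 and 0.35 without WT replicate 2, in fits where the remaining WT sample was taken to vary like the mutant samples. Arnt, the shared beta subunit, ranged from 21.2 to 22.5 RPKM over the 4 samples.

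Among the oxygen sensors, Egln3 differed most between genotypes, by 1.46 on the log2 scale, and Egln1 least, by 0.02. Egln3 (Entrez Gene 112407), a HIF prolyl hydroxylase that is itself a HIF target, was at an RPKM of 0.848 and 0.639 in the WT samples and 1.99 and 2.21 in the mutant samples. The groups did not overlap, and the gap between them exceeded the difference within either group. These levels rest on few reads, 48 and 45 in WT and 166 and 168 in mutant samples. Its log2 fold change of 1.46 ± 0.28 (SE) was the largest increase of the list and had the smallest p of all members, with an adjusted p of 0.0961 in edgeR and 0.0138 in DESeq2. With any 1 of the samples left out it lay between 1.21 and 1.69. Egln2, the hydroxylase with the highest level per length of the 3, was at an RPKM of 43.8 and 34.3 in WT and 31.2 and 32.5 in mutant samples. Both mutant samples were lower, with WT replicate 1 above the others, and the log2 fold change of -0.34 ± 0.17 had an adjusted edgeR p of 0.394. That of Egln2 was -0.13 without WT replicate 1 and -0.56 without WT replicate 2. Egln1, regarded as the main oxygen sensor, ranged from 11.7 to 13.0 RPKM, and Vhl, the substrate receptor of the ubiquitin ligase, from 6.94 to 7.02.

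The genes of glucose uptake differed by less than 0.25 on the log2 scale and did not pass the test. Slc2a1, the GLUT1 transporter of most cells, was at an RPKM of 23.1 and 25.3 in WT and 29.1 and 29.3 in mutant samples. All mutant values exceeded all WT values by a small step, a log2 fold change of 0.23 ± 0.12 with an adjusted edgeR p of 0.440. Slc2a3, the GLUT3 transporter, was low at an RPKM of 1.15 and 1.13 in WT and 1.51 and 1.20 in mutant samples, and its TMM-scaled counts overlapped between the groups. A log2 fold change of 0.21 ± 0.25 had an adjusted edgeR p of 0.741, and without mutant replicate 1 the log2 fold change of Slc2a3 was 0.02.

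The hexokinases, which trap glucose in the cell as a phosphate ester, differed in behaviour. Hk2 (Entrez Gene 15277), the inducible form, was at an RPKM of 4.46 and 6.84 in WT and 9.48 and 8.57 in mutant samples. Both mutant values were higher, with a log2 fold change of 0.64 ± 0.21 and an adjusted p of 0.216 in edgeR and 0.110 in DESeq2. WT replicate 1 gave the lowest value, and the log2 fold change of Hk2 was 0.38 without it and 0.92 without WT replicate 2, where the adjusted edgeR p was 0.00148. Hk1, the form of most tissues, was at an RPKM of 41.3 and 37.2 in WT and 37.1 and 40.3 in mutant samples, so Hk1 had the higher level per length in every sample. Gpi1, the next enzyme of the chain, was at an RPKM of 132 and 149 in WT and 151 and 141 in mutant samples, the highest level per length of this group. Gpi1 differed by 0.01 ± 0.13 on the log2 scale.

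Phosphofructokinase, the committed step of glycolysis, is built from subunits encoded by Pfkl, Pfkm and Pfkp. Pfkl, the liver form, was at an RPKM of 18.7 and 15.8 in WT and 15.3 and 14.0 in mutant samples. Pfkp, the platelet form, was at an RPKM of 9.61 and 11.3 in WT and 12.4 and 13.0 in mutant samples. Neither passed the test, with log2 fold changes of -0.28 ± 0.15 for Pfkl and 0.24 ± 0.14 for Pfkp and adjusted edgeR p values of 0.456 and 0.470. Pfkm, the muscle form, overlapped between the groups, from 14.1 to 17.6 RPKM. Both depended on the WT samples, since without WT replicate 1 the log2 fold change was -0.13 for Pfkl and 0.15 for Pfkp, and that of Pfkl was -0.45 without WT replicate 2.

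Pfkfb3 and Pfkfb4 encode enzymes that set the level of fructose 2,6-bisphosphate, the activator of phosphofructokinase, and both are HIF targets. Pfkfb3 was at an RPKM of 5.07 and 6.19 in WT and 7.44 and 6.75 in mutant samples, a log2 fold change of 0.29 ± 0.15 with an adjusted edgeR p of 0.426. Pfkfb4 was at an RPKM of 3.51 and 4.45 in WT and 2.90 and 2.91 in mutant samples, a log2 fold change of -0.495 ± 0.19 with an adjusted edgeR p of 0.282. One lay higher and the other lower in both mutant samples. Without WT replicate 1 the log2 fold change of Pfkfb3 was 0.18.

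**Figure D2:**
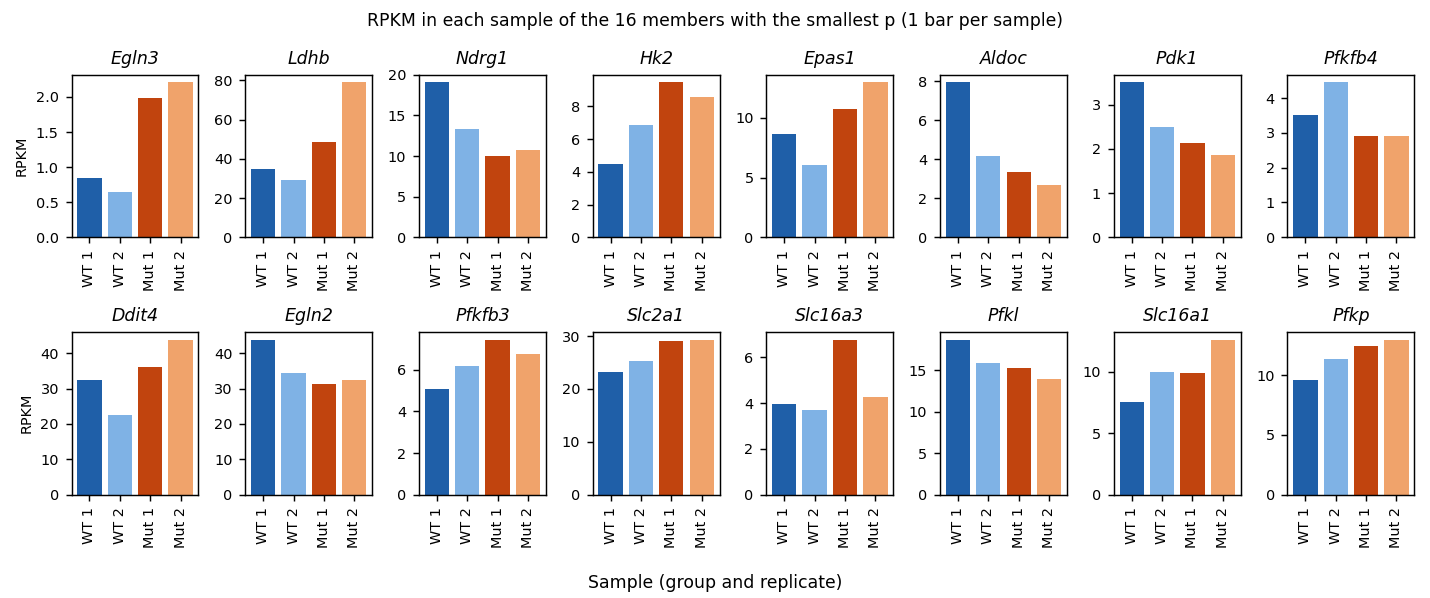
RPKM (bars from 0, 1 bar per sample) of the 16 members with the smallest p in edgeR, in order of p from Egln3 at 0.00163 to Pfkp at 0.126; blue bars are WT and orange bars Senp6-Mut samples. The mutant bars of Egln3 reach 1.99 and 2.21 against 0.848 and 0.639 in WT, while for Aldoc, Pdk1 and Ndrg1 the bar of WT replicate 1 stands above the other 3.

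Lower glycolysis, from aldolase to pyruvate kinase, held the most abundant transcripts of the list, and 7 of its 8 members lay within 0.25 of 0 on the log2 scale. Pkm, pyruvate kinase, had the highest mean level per length of the list, rank 78 of all genes, with an RPKM of 600.1 and 777 in WT and 718 and 779 in mutant samples. Pkm differed by 0.08 ± 0.15 on the log2 scale, and WT replicate 1 was the lowest sample. Aldoa, the main aldolase, was at an RPKM of 539 and 545 in WT and 549 and 516 in mutant samples, a log2 fold change of -0.07 ± 0.13. The triose phosphate isomerase gene Tpi1 was at 0.06 ± 0.13 on the log2 fold change scale, the phosphoglycerate kinase gene Pgk1 at 0.14 ± 0.18 and the phosphoglycerate mutase gene Pgam1 at 0.23 ± 0.16. Pgam1 was lowest in WT replicate 1, at an RPKM of 128 against 175, 187 and 178 in the other 3 samples. Without WT replicate 1 its log2 fold change was 0.04, and without WT replicate 2 it was 0.41 with an adjusted edgeR p of 0.0497. Eno1, the enolase of most cells, ranged from 253 to 303 RPKM and Eno2, the neuronal enolase, from 5.04 to 7.40, with log2 fold changes of -0.12 ± 0.14 and 0.13 ± 0.22. Several of these genes have near-identical pseudogenes that could share their reads, and reads covered only 66.5% to 77.5% of the length of Eno1, so its level is uncertain. Outside lower glycolysis, coverage was also low for Slc16a1, at 69.5% to 74.5%, and for Pfkp in WT replicate 2, at 75.0%.

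Aldoc, the aldolase typical of brain, was the exception in lower glycolysis. The RPKM of Aldoc was 7.94 and 4.16 in the WT samples and 3.35 and 2.66 in the mutant samples. Both mutant samples were below both WT samples, but WT replicate 1 stood apart, and the WT samples differed by 0.99 on the log2 scale. The log2 fold change of Aldoc (Entrez Gene 11676) was -1.05 ± 0.36, the largest decrease of the list, with an adjusted p of 0.230 in edgeR and 0.0983 in DESeq2. It was -0.48 without WT replicate 1 and -1.49 without WT replicate 2, where the adjusted edgeR p was 0.00133. WT replicate 1 was also the sample high in adipocyte markers, whose part in the value of Aldoc was not tested.

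Among the members that decide the fate of pyruvate and lactate, Ldhb and Pdk1 differed most. Ldhb (Entrez Gene 16832), the heart subunit of lactate dehydrogenase, was at an RPKM of 35.0 and 29.3 in WT and 48.7 and 79.0 in mutant samples. The mutant samples were both higher and differed from each other by 0.66 on the log2 scale, mutant replicate 2 being the highest. The log2 fold change of 0.94 ± 0.24 had an adjusted p of 0.142 in edgeR and 0.00913 in DESeq2. It was 1.24 without mutant replicate 1, where the adjusted edgeR p was 0.00249, and 0.58 without mutant replicate 2. The order of the samples for Ldhb was that of the striated muscle markers, whose summed RPKM was 119 and 38.7 in WT and 202 and 226 in mutant samples, and their part in the value of Ldhb was not tested. Ldha, the muscle subunit and a classical HIF target, was at an RPKM of 256 and 341 in WT and 317 and 330.2 in mutant samples. Both mutant values of Ldha lay between the WT values, with a log2 fold change of 0.08 ± 0.16.

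The lactate exporters had higher means in the mutant samples and did not pass the test. Slc16a3, the MCT4 transporter, was at an RPKM of 3.95 and 3.70 in WT and 6.77 and 4.27 in mutant samples. Its log2 fold change of 0.49 ± 0.27, with an adjusted edgeR p of 0.445, came mostly from mutant replicate 1 and was 0.10 without it. Slc16a1, the MCT1 transporter, was at an RPKM of 7.55 and 9.98 in WT and 9.88 and 12.6 in mutant samples, so the groups overlapped. Its log2 fold change was 0.32 ± 0.18 with an adjusted edgeR p of 0.468, and it was 0.15 without WT replicate 1 and 0.16 without mutant replicate 2.

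Pyruvate dehydrogenase kinases act in the mitochondrial matrix, where they phosphorylate pyruvate dehydrogenase and so limit the conversion of pyruvate to acetyl-CoA. Pdk1 (Entrez Gene 228026), the kinase induced by HIF, was at an RPKM of 3.51 and 2.50 in WT and 2.13 and 1.85 in mutant samples. It was lower in both mutant samples, with a log2 fold change of -0.64 ± 0.24 and an adjusted p of 0.263 in edgeR and 0.233 in DESeq2. Without WT replicate 1 the log2 fold change of Pdk1 was -0.35, and without WT replicate 2 it was -0.91 with an adjusted edgeR p of 0.00653. Pdk3, also induced by HIF, was at an RPKM of 29.1 and 30.1 in WT and 29.1 and 27.6 in mutant samples, a higher level per length than Pdk1 in every sample.

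Of the other HIF targets, Ndrg1 lay lower and Ddit4 lay higher in the mutant samples. Ndrg1 (Entrez Gene 17988), a stress and differentiation gene, was at an RPKM of 19.1 and 13.3 in WT and 9.95 and 10.7 in mutant samples. Its log2 fold change of -0.70 ± 0.21 had an adjusted p of 0.184 in edgeR and 0.0551 in DESeq2, the lowest DESeq2 value of any member that lay lower. It was -0.39 without WT replicate 1 and -0.99 without WT replicate 2, where the adjusted edgeR p was 0.000387. Ddit4, the mTORC1 inhibitor REDD1, was at an RPKM of 32.6 and 22.7 in WT and 36 and 43.8 in mutant samples. The log2 fold change of 0.48 ± 0.21 for Ddit4 had an adjusted edgeR p of 0.346, and it was 0.80 without WT replicate 1 and 0.19 without WT replicate 2. P4ha3, which encodes a subunit of the collagen prolyl hydroxylase, was listed with these targets, and its regulation by HIF was not tested. It had the highest level per length of that group, at an RPKM of 42.4 and 39.7 in WT and 44.7 and 50.3 in mutant samples. The log2 fold change of P4ha3 was 0.17 ± 0.13, and it was 0.06 without WT replicate 2.

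The remaining targets differed by 0.23 or less on the log2 scale. The mitophagy receptors Bnip3 and Bnip3l were at log2 fold changes of 0.11 ± 0.16 and 0.03 ± 0.14, the mitochondrial protein gene Higd1a at 0.07 ± 0.18 and the vasodilator gene Adm at 0.23 ± 0.17. Without mutant replicate 2 that of Adm was 0.06. Car9, a carbonic anhydrase widely used as a marker of hypoxia, was near its floor in all samples with 38 and 19 reads in WT and 38 and 41 in mutant samples. At this depth its log2 fold change of 0.05 carried a standard error of 0.50, so a difference of that size in Car9 was not detectable.

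**Figure D3:**
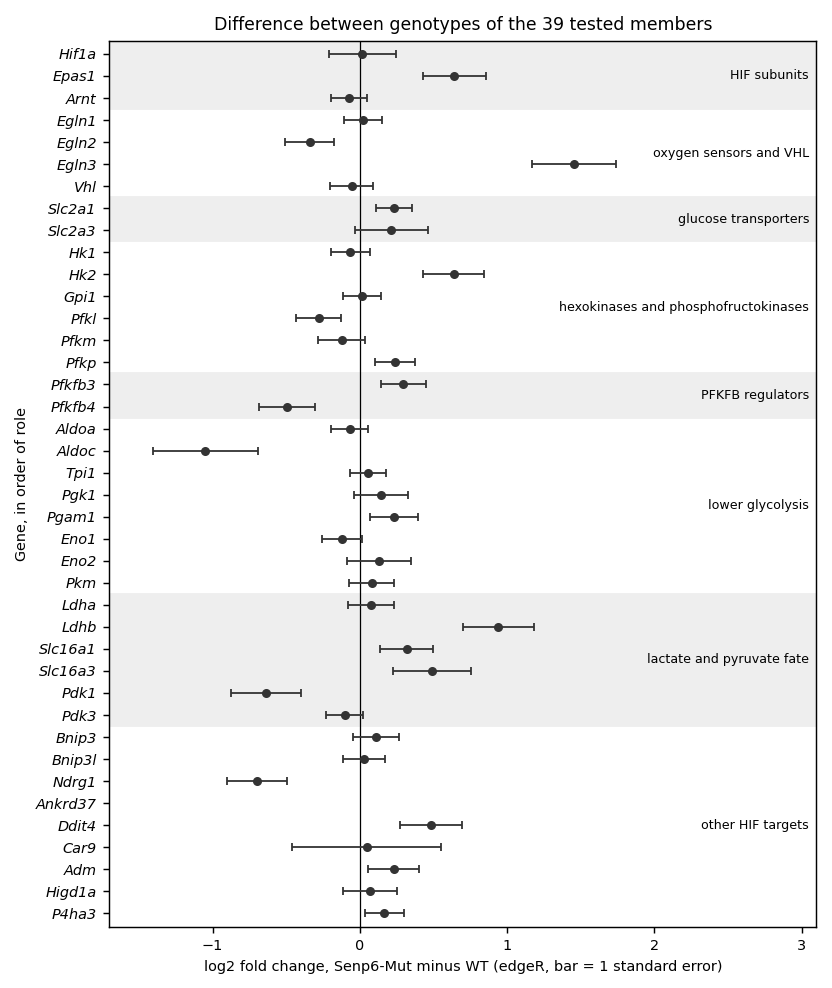
Log2 fold change (Senp6-Mut minus WT, edgeR) of the 39 tested members in order of role, with bars of 1 standard error (n = 2 per group). Egln3 at 1.46 and Aldoc at -1.05 lie farthest from 0, and 25 members lie within 0.25 of it.

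Ratios between paralogs were taken within each sample, where library scaling cancels. Of 13 pairs, 7 had ratios that did not overlap between genotypes. Among single genes in TMM-scaled counts 25.4% lay above and 22.8% below, together close to the share of separated pairs. That is an unlike measure, and no share was computed for ratios of other gene pairs. Each of the 7 pairs holds a member already listed as apart, so these ratios are not separate observations. With 2 samples per group the two-sided exact permutation test cannot give a p under 0.333. Egln1 to Egln3 was 13.8 and 20.1 in WT and 6.56 and 5.73 in mutant samples, a ratio of RPKM that was lower in both mutants. Ldha to Ldhb was 7.30 and 11.7 in WT and 6.51 and 4.18 in mutant samples, so that Ldha stayed the main lactate dehydrogenase subunit by level per length everywhere. Hk1 to Hk2 was 9.27 and 5.44 in WT and 3.92 and 4.71 in mutant samples. Pfkl to Pfkp was 1.95 and 1.40 in WT and 1.23 and 1.08 in mutant samples, approaching equal levels per length. These 4 ratios were lower in both mutant samples, and 3 others were higher. Aldoa to Aldoc was 67.9 and 131 in WT and 164 and 194 in mutant samples. Pfkfb3 to Pfkfb4 was 1.45 and 1.39 in WT and 2.57 and 2.32 in mutant samples, the pair whose WT samples were closest to each other among these 7. Pdk3 to Pdk1 was 8.29 and 12.0 in WT and 13.7 and 14.9 in mutant samples. The pairs that overlapped were Hif1a to Epas1, Eno1 to Eno2, Slc2a1 to Slc2a3, Pfkl to Pfkm, Slc16a1 to Slc16a3 and Bnip3l to Bnip3.

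**Figure D4:**
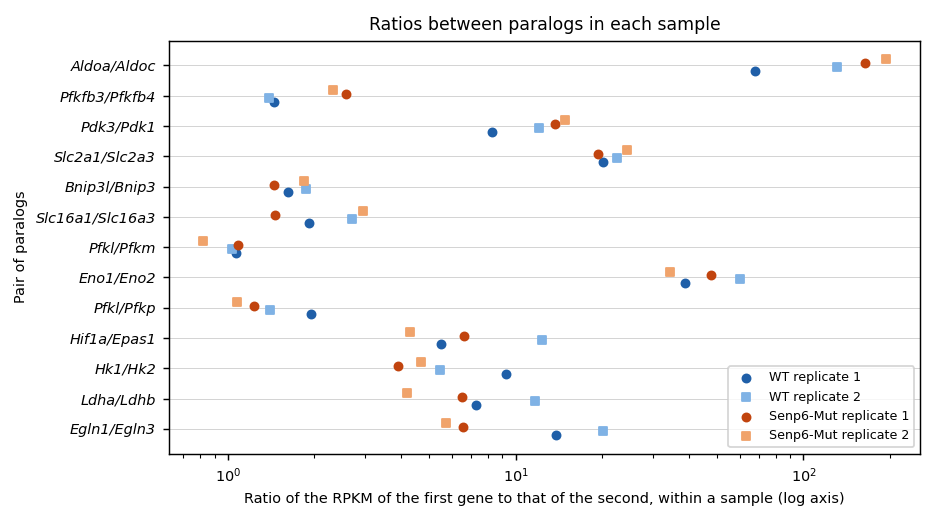
Ratio of the RPKM of 2 paralogs within each sample (log axis) for 13 pairs, ordered by the log2 difference between genotypes; blue is WT and orange Senp6-Mut, circles are replicate 1 and squares replicate 2. The orange points of Egln1/Egln3, at 6.56 and 5.73, lie below both blue points, and those of Aldoa/Aldoc, at 164 and 194, lie above both.

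A further list of 93 genes of the same pathways held 86 with reads and 78 that were tested, and 0 of them passed an adjusted p of 0.05 in edgeR. At an unadjusted edgeR p under 0.05, 8 were higher and 7 lower, beside the backgrounds of 9.29% and 6.28%, and their median log2 fold change was 0.03. Vegfa, the angiogenic HIF target, was at an RPKM of 14.6 and 20.8 in WT and 25.8 and 25.7 in mutant samples, a log2 fold change of 0.50 with an adjusted edgeR p of 0.236. That of Vegfa was 0.29 without WT replicate 1 and 0.72 without WT replicate 2. The VEGF receptor genes Flt1 and Kdr were at log2 fold changes of 0.95 and 1.32, with Kdr at an RPKM of at most 0.570 and 15 to 88 reads. Also among the higher genes, with their log2 fold changes, were Eno3, the muscle enolase (0.95), Arnt2, a paralog of Arnt (0.93), Cp, a copper carrier (0.83), and Car12, a carbonic anhydrase (0.52). The 7 lower genes were Hk3, the hexokinase of blood cells (-1.79), Pdp1 (-1.31), Ppp1r3c, a glycogen regulator (-1.25), Tmem45a (-0.80), Pdk2 (-0.77), Tkt of the pentose phosphate pathway (-0.39) and Pgm2, a sugar phosphate mutase (-0.38). Hk3 was near its floor, with 22 and 18 reads in WT and 7 and 8 in mutant samples. Its adjusted p in DESeq2 was 0.386. Pdp1, the phosphatase that reverses the action of the pyruvate dehydrogenase kinases, was at an RPKM of 15.8 and 9.49 in WT and 5.47 and 5.08 in mutant samples, with an adjusted p of 0.0985 in edgeR and 0.00017 in DESeq2. Without WT replicate 1 the log2 fold change was -0.86 for Pdp1 and -0.24 for Pdk2, and without WT replicate 2 it was -1.68 and -1.19. Of the other genes named, Cp was at 0.47 without WT replicate 2, Eno3 at 0.62 without mutant replicate 2, Car12 at 0.35 without WT replicate 1 or mutant replicate 1, and Tkt at -0.25 and Pgm2 at -0.22 without WT replicate 1. Of 11 tested genes of pyruvate dehydrogenase, its regulators and the mitochondrial pyruvate carrier, 6 were below both WT samples in both mutants and 1 above. Their median log2 fold change was -0.20. Of 38 tested other HIF targets, 13 were above and 5 below, with a median of 0.05. These counts stand beside 25.4% above and 22.8% below over all genes tested. Above and below were 4 and 2 of 12 other glycolysis genes, 1 and 0 of 10 other HIF pathway genes, and 1 and 2 of 7 pentose phosphate genes.

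Lists of cell type markers moved with the genotype by more than the hypoxia and glycolysis genes did, though no gene of them passed an adjusted p of 0.05 in edgeR. All 11 chondrocyte markers were lower in both mutant samples, with a median log2 fold change of -1.68. Of 14 striated muscle markers, 10 were higher in both mutant samples, with a median of 1.39, and 1 had a negative log2 fold change, of -1.49. From lowest to highest RPKM, the samples had the same order in the summed muscle markers as in Ldhb, Egln3, Epas1, Ddit4 and P4ha3. How many of all genes tested had that order was not counted. All 9 tested macrophage markers were lower in both mutants, with a summed RPKM of 25.6 and 22.2 in WT and 9.78 and 14.3 in mutant samples. Beside this stands the lower value of Hk3, which rested on few reads. Of 5 tested adipocyte markers 4 were lower in both mutants. By RPKM the sample highest in them, WT replicate 1, was also highest in Aldoc, Pdk1, Ndrg1, Egln2 and Pfkl, and in Hk1, Pfkm, Vhl and Car9. No other member was highest in that sample, so most of the list was not. The share of all genes highest in that sample was not counted. Of 5 tested osteoblast markers 4 were lower and 1 was higher in both mutants, with a median log2 fold change of -1.11. Their summed RPKM, 482 to 642, overlapped between the groups. Of 5 tested endothelial markers, Kdr among them, 1 was lower and 1 higher in both mutants, with a median of -0.88 and a summed RPKM of 4.99 to 6.99. Red blood cell markers summed to at most 0.530 RPKM, and 6 of those 13 symbols, Hbb-bs and Hbb-bt among them, were at 0 in every sample. What part these cell types had in the values of the hypoxia and glycolysis genes was not tested.

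**Figure D5:**
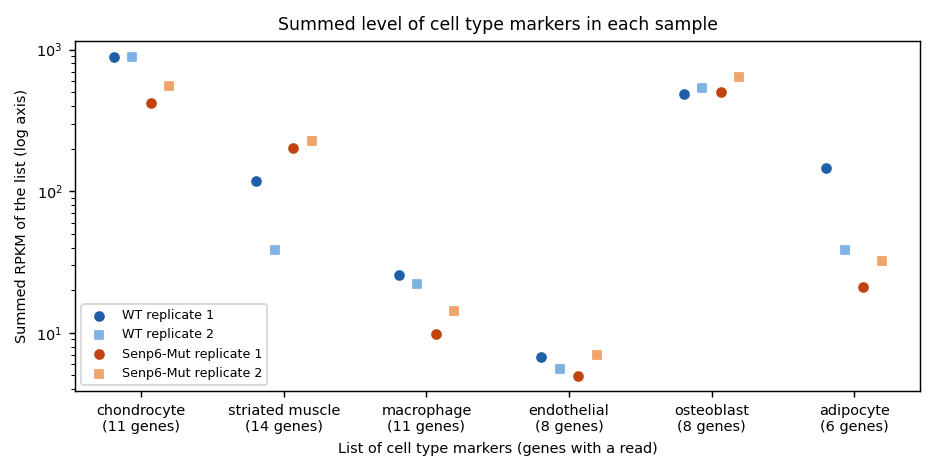
Summed RPKM (log axis) of each list of cell type markers in the 4 samples, with the number of genes that had a read; blue is WT and orange Senp6-Mut, circles are replicate 1 and squares replicate 2. Chondrocyte markers sum to 891 and 887 in WT against 416 and 556 in mutant samples, striated muscle markers are lowest in WT replicate 2 at 38.7, and adipocyte markers are highest in WT replicate 1 at 147.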

How the data were processed

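RNA of 2 WT and 2 Senp6-Mut cultures was enriched for poly(A), sequenced and counted per gene by a service. For each gene the authors deposited a raw read count, an RPKM, scaled by gene length and by the total of reads on genes, and the covered percent of its length. The submitters' processing notes name mm9 and SAMtools, and the aligner, counter and annotation are not given in the sources used here. The library steps in the labels do not keep strand, so antisense reads cannot be told apart. The files hold no coordinates, and the promoter windows are those of the RefSeq table in its own build.

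Groups were taken from the labels. A gene absent from a sample's list was given a count of 0. In R 4.3.3, edgeR 4.0.16 was used for a quasi-likelihood test, which, with TMM factors of 0.966 to 1.03 and robust estimation, was run on the counts of all genes that reached 10 in 2 or more samples, and p values were adjusted by Benjamini-Hochberg over these 14123 genes. The F statistic gave the standard errors. Overlap of the groups was judged on TMM-scaled counts, and levels and ratios on the RPKM as deposited. The alternatives were DESeq2 1.42.0, RLE factors, library totals alone, no filter, 10 counts in every sample, limma 3.58.1 on log2(RPKM + 1) and log2(RPKM + 0.1), a block for the replicate number, and fits without 1 of the samples. The scripts were tested on simulated data. Replicates were checked for a repeated library, and the chi-square per degree of freedom, 51.7 for the WT pair and 25 for the mutant pair, was above sampling noise.

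The members and lists were chosen with earlier results of these data known. Values per sample are given for the 16 members with the smallest p, the member with the highest mean RPKM of each role and the paralog pairs, and other pathway genes are named at an unadjusted p under 0.05 or a log2 fold change of at least 1 in size. Of the genes that this rule names, 1 is not reported here.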

Additional observations from a re-analysis of the deposited data

How the results depend on the processing

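No member passed an adjusted p of 0.05 in the edgeR fit to all 4 samples, and this held under RLE factors, library totals alone, 10 counts in every sample, both limma fits and the replicate block. DESeq2 called 2 members higher (Egln3, Ldhb) and no filter on low counts called 1 (Egln3, adjusted edgeR p of 0.0465). Over all genes, 0 higher and 0 lower in the main test became 434 and 263 with DESeq2, 6 and 2 with library totals alone, 225 and 61 without a filter, and 84 and 33 with the replicate block. The replicate differences of the groups correlated at -0.0422 over genes. With 1 difference per group this cannot show whether samples of the same replicate number shared a litter or batch. With the replicate block the median log2 fold change of the members was 0.0892. Leaving out each sample, with the lone sample of an arm assumed to vary like the other group, gave 68 to 1296 genes higher and 37 to 1444 lower, and 0 to 3 members higher and 0 to 5 lower. The median log2 fold change of the members, 0.0681, was 0.108 with library totals alone, 0.109 and 0.132 with limma at pseudocounts of 1 and 0.1, and 0.00529 to 0.0939 on leaving out a sample, the lowest without WT replicate 1.

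Without WT replicate 1, Epas1, Egln3 and Ddit4 passed the threshold as higher. Without WT replicate 2, where 9.25% of all genes were called higher and 10.3% lower, Egln3, Hk2 and Pgam1 passed as higher and Egln2, Pfkl, Aldoc, Pdk1 and Ndrg1 as lower, and without mutant replicate 1 Ldhb passed as higher. The direction of 25 of 39 members held under all 12 alternatives, and the 14 that turned had a log2 fold change of at most 0.143 in size with all samples. Gpi1 turned to -0.00122 with DESeq2 and to -0.0012 with RLE factors. On leaving out each sample the log2 fold change ran from -0.251 to 0.314 for Hif1a, -0.0194 to 0.0689 for Egln1, -0.194 to 0.0374 for Hk1, -0.0522 to 0.0861 for Gpi1, -0.274 to 0.00529 for Pfkm, -0.0127 to 0.0949 for Tpi1 and -0.0893 to 0.385 for Pgk1. It ran from -0.0995 to 0.352 for Eno2, -0.0731 to 0.219 for Pkm, -0.0943 to 0.24 for Ldha, -0.0107 to 0.207 for Bnip3, -0.105 to 0.163 for Bnip3l, -0.534 to 0.856 for Car9 and -0.101 to 0.229 for Higd1a. The cause of these changes was not tested. Taken from counts, the ratios between paralogs differ from those of RPKM by a fixed factor, so their differences are equal by construction. Ankrd37 had too few reads to test. Car9 and Egln3 rested on few reads, with standard errors of 0.50 and 0.28, and Aldoc had one of 0.36. Egln3 did not pass at a log2 fold change of 1.46, with an adjusted edgeR p of 0.0961. Differences well above 1 standard error could thus go uncalled.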
